A study of Mus musculus with 21 samples.

Results

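The genes examined here are 7 transcripts of homeostatic microglia whose products lie on the cell surface or are secreted: Tmem119, Siglech, Gpr34, Slc2a5, Cst3, Sparc and Olfml3. They were taken by symbol from the deposited table of 45706 gene identifiers, and all 7 were present with counts in all 21 libraries. All 7 were among the 23815 genes tested. Tmem119, Siglech, Gpr34 and Slc2a5 encode membrane proteins, and Cst3, Sparc and Olfml3 encode secreted proteins.

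Microglia (live CD45 low CD11b+ cells) and infiltrating myeloid cells (live CD45 high CD11b+ cells) were sorted from a tissue block that spanned the lesion after controlled cortical impact (CCI), a model of traumatic brain injury, and profiled by bulk RNA-seq. The mice were males aged 17 to 24 weeks on the C57BL/6 background. Wild-type (WT) mice were compared with Fgg γ390–396A mice, knock-ins whose fibrinogen γ chain carries a mutated binding site for the CD11b/CD18 integrin while clotting is retained. Each library pooled 2 brains, with 40000 sorted microglia or 25000 sorted myeloid cells. There were 7 groups of 3 libraries. Injured microglia of each genotype were taken at 1 d and at 7 d, infiltrating myeloid cells of each genotype at 1 d only, and microglia of sham-operated mice formed the control group. Sham controls had anesthesia and craniotomy without impact, and their labels carry neither a mutant genotype nor a day. No sham group of Fgg γ390–396A mice was analysed here, so both genotypes are set against the same sham libraries.

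Homeostatic microglia express a set of genes that separates them from blood-derived macrophages and that is lost in part when the cells respond to injury. TMEM119 is a membrane protein used as a microglia marker, and Siglec-H is a member of the Siglec family that signals through the adaptor DAP12. GPR34 is a receptor for lysophosphatidylserine, and SLC2A5 (GLUT5) is a fructose transporter. Cystatin C, from Cst3, inhibits cysteine cathepsins, SPARC is a matricellular protein that binds collagen, and OLFML3 is a secreted olfactomedin-domain protein.

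In GRCm38 coordinates, Tmem119 (ENSMUSG00000054675) lies at chr5:113793729-113800516 on the minus strand, Siglech (ENSMUSG00000051504) at chr7:55768178-55778925 on the plus strand, Gpr34 (ENSMUSG00000040229) at chrX:13632089-13640858 on the plus strand and Slc2a5 (ENSMUSG00000028976) at chr4:150119283-150144169 on the plus strand. Cst3 (ENSMUSG00000027447) lies at chr2:148871722-148875692, Sparc (ENSMUSG00000018593) at chr11:55394500-55423183 and Olfml3 (ENSMUSG00000027848) at chr3:103722222-103738001, all 3 on the minus strand. Olfml3 shares its chromosome with Fgg, which lies 20.7 megabases away at chr3:83007724-83015049. Gpr34 lies inside Cask, a gene on the opposite strand, and the 2 genes share 0 exon bases in the annotation. Reads from a pair of opposite-strand genes cannot be told apart without strand, and the strand setting of the counting is not given in the sources used here.

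Promoter windows from RefSeq (GRCm38.p6), 250 bases before to 50 bases after the annotated start, were held for 5 of the 7 genes. Tmem119 and Gpr34 had no entry. The 3 windows below belong to the gene with the largest fall at 1 d in WT mice (Slc2a5), the gene with the largest difference between genotypes at 1 d (Siglech), and the gene that did not fall at 1 d (Olfml3). Each is written 5′ to 3′ on the strand of the gene, and capitals mark matches to the RUNX letters TGTGGTT or the SMAD letters CAGAC on either strand.
Slc2a5, chr4:150119094-150119393, plus strand: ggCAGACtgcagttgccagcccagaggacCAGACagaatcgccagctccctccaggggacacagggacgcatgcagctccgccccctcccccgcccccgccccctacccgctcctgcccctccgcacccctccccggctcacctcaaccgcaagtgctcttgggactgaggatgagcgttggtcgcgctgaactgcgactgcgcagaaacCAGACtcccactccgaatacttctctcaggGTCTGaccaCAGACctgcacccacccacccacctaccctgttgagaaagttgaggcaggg
Siglech, chr7:55767934-55768233, plus strand: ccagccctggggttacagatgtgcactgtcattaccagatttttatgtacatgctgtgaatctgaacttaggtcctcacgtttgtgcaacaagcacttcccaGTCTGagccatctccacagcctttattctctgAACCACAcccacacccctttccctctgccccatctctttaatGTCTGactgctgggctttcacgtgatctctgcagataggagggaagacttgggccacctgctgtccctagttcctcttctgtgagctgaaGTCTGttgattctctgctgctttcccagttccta
Olfml3, chr3:103737952-103738251, minus strand: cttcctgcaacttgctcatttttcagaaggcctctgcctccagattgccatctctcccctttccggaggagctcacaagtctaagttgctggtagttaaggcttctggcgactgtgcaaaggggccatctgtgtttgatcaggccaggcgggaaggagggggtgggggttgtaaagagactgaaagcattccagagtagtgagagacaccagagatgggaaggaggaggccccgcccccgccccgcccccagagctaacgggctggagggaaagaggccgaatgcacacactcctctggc
The SMAD letters occurred in 4 of the 5 windows (Cst3, Siglech, Slc2a5 and Sparc) and were not found in Olfml3, and 49.6% of 32851 promoters hold them. The RUNX letters occurred in 1 window, that of Siglech, 116 bases before the start, and in 5.27% of all promoters. The letters for PU.1 (GAGGAAG) and AP-1 (TGANTCA) and the IRF and MEF2 motifs were in 0 of the 5 windows, against 13.6%, 7.81%, 3.44% and 3.69% of all promoters. Both strands were searched in every case. A match to so few letters describes the window and does not locate a bound site.

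Total counts per library ranged from 18896957 to 51875767, of which 43.0% to 58.5% came from ribosomal RNA genes, and 3 counts corresponded to a level of 0.0448 to 0.158 CPM (counts scaled to the TMM library size). Fgg had 0 counts in all 12 libraries from WT and sham mice and between 1 and 14 counts in 7 of the 9 Fgg γ390–396A libraries, which does not read the mutated codons themselves. All microglia groups expressed the other microglia markers P2ry12, Cx3cr1, Sall1 and Fcrls. Labels do not say whether same-numbered libraries share a day or litter. In bulk libraries, fewer cells of a type and less RNA per cell cannot be told apart.

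In sham microglia the 7 genes covered a wide range of abundance on the length-scaled CPM scale, led by Cst3 with a level of 16801 ± 506 CPM (SD, n = 3). Cst3 was the first or second most abundant gene outside ribosomal RNA in each sham library and supplied 4.12% to 4.71% of those counts. Sparc followed at 1618 ± 202 CPM (SD, n = 3). Siglech (622 ± 75.4 CPM), Gpr34 (564 ± 26.1 CPM) and Tmem119 (509 ± 113 CPM) formed a middle group whose library ranges overlapped in part. Olfml3 stood at 284 ± 72.7 CPM and Slc2a5 at 144 ± 23.5 CPM, each with n = 3. The third sham library was the highest for Tmem119 and Olfml3, and the other 2 sham libraries lay close together for both genes.

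**Figure D1:**
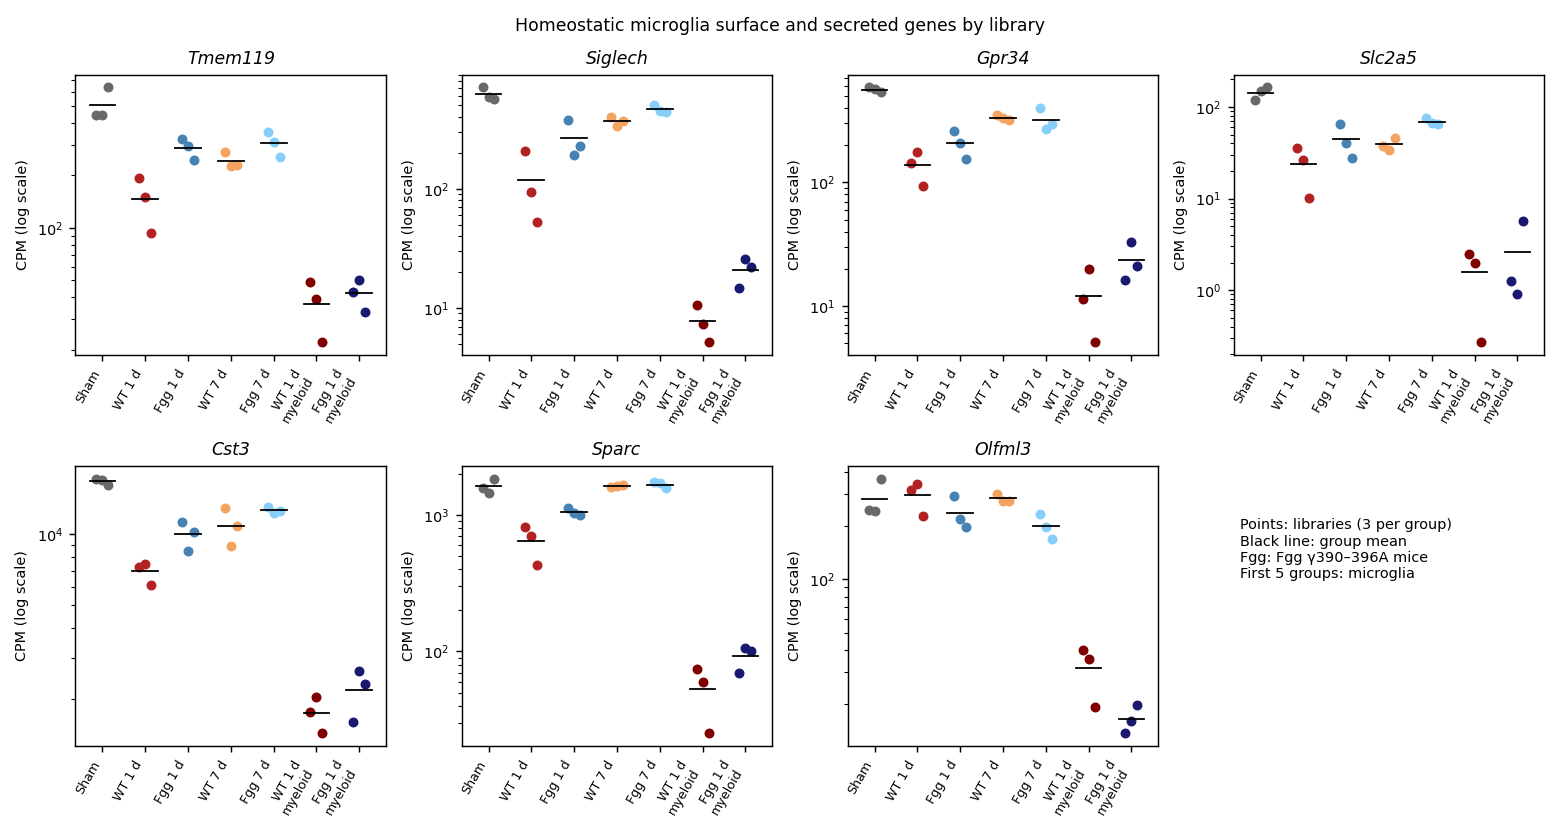
CPM of each gene (log axis) in every library of the 7 groups, with black lines for group means of 3 libraries. Olfml3 held a similar level in sham and injured WT microglia (group means of 284 to 296 CPM), the other genes had their lowest microglial mean in WT mice at 1 d, and all 7 were lowest in infiltrating myeloid cells.

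The first question was how injury changed these genes in WT microglia at 1 d. Of the 7 genes, 6 fell and Olfml3 did not pass the test, against 5.97% of all tested genes that were called lower. The median log2 fold change of the 7 genes was -1.80, and that of all genes was 0.0. Fold changes and adjusted p-values here and below come from edgeR's quasi-likelihood test over all tested genes with Benjamini-Hochberg adjustment and a threshold of 0.05.

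Among the membrane proteins, the fructose transporter gene Slc2a5 read 118, 148 and 164 CPM in the sham libraries and 35.4, 26.2 and 10.3 CPM in WT microglia at 1 d. It fell by 2.58 ± 0.59 on the log2 scale (SE, adjusted p = 0.0041, edgeR), which is 5.99-fold. Siglech fell from 709, 588 and 570 CPM to 206, 93.2 and 52.6 CPM. This Siglec family gene dropped by 2.41 ± 0.38 on the log2 scale (adjusted p = 0.00013, edgeR), to 18.9% of the sham mean. The WT libraries were spread widely for Siglech but all stayed below every sham library.

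The lysophosphatidylserine receptor gene Gpr34 read 589, 566 and 537 CPM in sham microglia and 144, 176 and 94.0 CPM at 1 d in WT mice, and fell by 2.03 ± 0.36 on the log2 scale (adjusted p = 0.00039, edgeR). Tmem119 went from 445, 443 and 639 CPM to 194, 151 and 93.6 CPM and fell by 1.80 ± 0.28 (adjusted p = 0.00012, edgeR). No WT library at 1 d reached the lowest sham library for either gene. All 4 membrane genes were therefore reduced 3.49-fold to 5.99-fold.

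The secreted products were less uniform. Cst3, the cathepsin inhibitor, read 17224, 16938 and 16241 CPM in sham controls and 7275, 7503 and 6116 CPM at 1 d in WT mice, and fell by 1.27 ± 0.21 on the log2 scale (adjusted p = 0.00021, edgeR). Sparc went from 1561, 1450 and 1841 CPM to 808, 695 and 428 CPM and fell by 1.33 ± 0.29 (adjusted p = 0.0026, edgeR). As a description, both secreted genes retained a larger part of the sham mean (41.5% and 39.8%) than the membrane genes (16.7% to 28.7%).

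Olfml3 read 244, 241 and 368 CPM in sham microglia and 318, 344 and 227 CPM at 1 d in WT mice. Its libraries overlapped and its log2 fold change was 0.06 ± 0.25 (adjusted p = 0.98, edgeR). With DESeq2 size factors that value was -0.04, so its sign depends on the scaling. The third WT library at 1 d held the lowest level of all 7 genes within its group, and the first was above the group mean for all 7. All 6 falls were also called when any 1 library was left out.

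Some markers of other cells moved with the same comparison. The summed level of 8 monocyte and infiltrating macrophage markers was 8.77 to 52.1 CPM in sham microglia and 136 to 211 CPM in WT microglia at 1 d, against 2649 to 4042 CPM in the myeloid libraries, and 2 of the 8 rose. Neutrophil markers summed to 160 to 756 CPM in sham and 174 to 836 CPM at 1 d in WT, with 0 of 8 called higher and 1 lower. No marker of either list was at 0 in either group. Astrocyte markers, listed because astrocytes also express Sparc and Cst3, summed to 41.0 to 49.2 CPM in sham and 11.2 to 19.4 CPM at 1 d in WT. Of these 6 markers, 1 was called higher and 1 lower. The ribosomal RNA share was 43.4% to 47.8% in sham and 50.6% to 58.5% in WT libraries at 1 d, and removing ribosomal RNA genes left the same 6 genes called. Markers of plasmacytoid dendritic cells, which also express Siglech, summed to 27.7 to 43.3 CPM in sham and 80.8 to 128 CPM at 1 d in WT. Of the 6 tested, 2 rose. Klk1 and Ly6d were at 0 in both groups. The same markers summed to 80.2 to 160 CPM in the myeloid libraries. Border-associated macrophage markers summed to 4.91 to 249 CPM in sham and 128 to 230 CPM at 1 d in WT, with 0 of 7 called. Pericyte and fibroblast markers did not exceed 2.37 CPM in any microglia library. The part of these markers in the result was not tested.

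In Fgg γ390–396A microglia at 1 d, set against the same sham libraries, 3 of the 7 genes fell, where 2.19% of all genes were called lower (3.34% with DESeq2 size factors, where 65.2% of all calls were higher in place of 77.6%). All 7 log2 fold changes were negative, with a median of -0.83 against 0.0 for all genes. Gpr34 read 259, 209 and 154 CPM and fell by 1.44 ± 0.35 on the log2 scale (adjusted p = 0.01, edgeR). Siglech read 375, 193 and 227 CPM and fell by 1.23 ± 0.37 (adjusted p = 0.036, edgeR). Cst3 read 11322, 8513 and 10178 CPM and fell by 0.75 ± 0.21 (adjusted p = 0.025, edgeR).

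The remaining genes did not pass at this threshold. Slc2a5 had the most negative value, -1.70 ± 0.57 (adjusted p = 0.073), from libraries at 64.9, 40.7 and 27.4 CPM. Tmem119 (321, 293 and 245 CPM) had a log2 fold change of -0.83 ± 0.27 (adjusted p = 0.063), and Sparc (1124, 1038 and 992 CPM) of -0.62 ± 0.28 (adjusted p = 0.22), all by edgeR. Olfml3 (295, 219 and 196 CPM) was the only gene of the 7 whose Fgg γ390–396A libraries at 1 d overlapped the sham libraries. The 6 without overlap compare with 13.4% of all genes in this direction.

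These calls were sensitive to single libraries and to the fit. Leaving out 1 library of the 2 groups at a time left between 0 and 3 calls. Without the third Fgg γ390–396A library 0 of the 3 genes passed (adjusted p = 0.07 for Gpr34, 0.15 for Siglech and 0.074 for Cst3 by edgeR). Siglech and Cst3 were also lost without the second Fgg γ390–396A library (adjusted p = 0.19 and 0.15), the first sham library (0.11 and 0.067) or the second sham library (0.072 and 0.073), and Siglech alone without the third sham library (adjusted p = 0.059). Adjusted p ranged over all alternatives from 0.00011 to 0.07 for Gpr34, from 0.0023 to 0.19 for Siglech and from 3.1e-05 to 0.15 for Cst3. DESeq2 called 6 genes, and edgeR on the microglia libraries alone called 5. Monocyte markers summed to 44.9 to 115 CPM in this group, and 2 of the 8 rose against sham. Astrocyte markers summed to 14.6 to 21.9 CPM, below their sham range, with 2 of 6 called lower and 1 higher. Plasmacytoid dendritic cell markers summed to 86.1 to 165 CPM, above their sham range, and 2 of 6 rose, with Klk1 and Ly6d at 0. The part of these markers in the result was not tested.

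**Figure D2:**
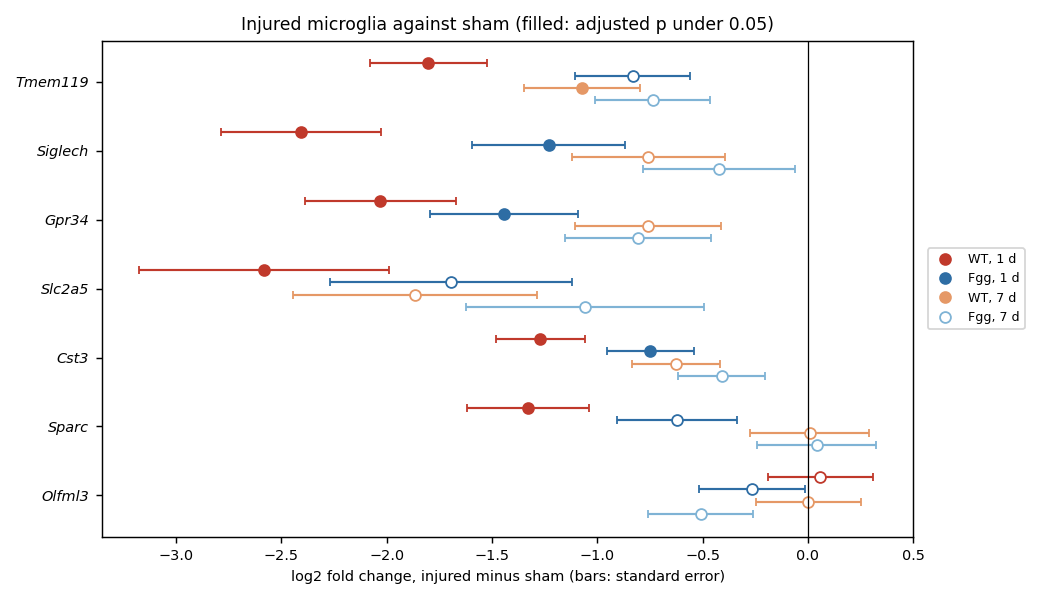
Log2 fold change of each gene against sham microglia for both genotypes at 1 d and 7 d, with standard errors and filled symbols for an adjusted p under 0.05. WT mice at 1 d had the most negative value for each of the 6 genes other than Olfml3, and Sparc lay near 0 at 7 d in both genotypes.

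At 7 d the genes differed in how near they were to sham levels. In WT microglia 1 of the 7 genes was below sham by the test, where 0.265% of all genes were called lower, and 5 had libraries entirely below the sham range, as did 9.59% of all genes. Tmem119 read 272, 225 and 229 CPM and fell by 1.07 ± 0.27 on the log2 scale (adjusted p = 0.039, edgeR). That call was lost without any 1 of the 6 libraries compared, with adjusted p between 0.061 and 0.17. Over all alternatives it ranged from 0.0021 to 0.17.

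Slc2a5 had the lowest share of its sham mean at 7 d in WT mice, 27.4%, with libraries at 37.6, 34.3 and 46.3 CPM and a log2 fold change of -1.87 ± 0.58 (adjusted p = 0.11, edgeR). Siglech (399, 337 and 369 CPM), Gpr34 (349, 331 and 321 CPM) and Cst3 (12925, 8909 and 10800 CPM) stood at 59.2%, 59.1% and 64.7% of their sham means, with adjusted p of 0.43, 0.4 and 0.15 by edgeR. Their libraries were all below the sham libraries. Sparc read 1611, 1617 and 1654 CPM, inside the sham range and 100.6% of its mean, and Olfml3 read 303, 275 and 277 CPM, 100.2% of its mean.

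Markers of other cells differed from sham in these WT libraries too. Plasmacytoid dendritic cell markers summed to 136 to 146 CPM at 7 d in WT, against 27.7 to 43.3 CPM in sham, and 2 of 6 rose. Klk1 was at 0 in both groups and Ly6d in sham. Oligodendrocyte markers summed to 47.1 to 74.8 CPM, against 25.2 to 31.0 CPM in sham, and 2 of 6 rose. Monocyte markers summed to 25.7 to 80.0 CPM with 1 of 8 called higher, and astrocyte markers to 30.2 to 34.3 CPM with 1 of 6 called higher. The part of these markers in the result was not tested.

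In Fgg γ390–396A microglia at 7 d, edgeR called 0 of the 7 genes against sham, where it called 0.886% of all genes. At an unadjusted p under 0.05 by edgeR there were 2 genes (Tmem119 and Gpr34), against 1808 of all 23815 genes tested. DESeq2 and limma-trend called 0 of the 7. Slc2a5 read 75.5, 66.8 and 64.5 CPM, Siglech 506, 444 and 442 CPM, and Tmem119 352, 309 and 256 CPM. Libraries of 6 genes lay wholly below the sham libraries, against 7.2% of all genes in that direction, and Sparc (1724, 1711 and 1559 CPM) overlapped them. Olfml3, at 233, 196 and 170 CPM, was 70.3% of its sham mean with a log2 fold change of -0.51 ± 0.25 (adjusted p = 0.66, edgeR).

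Between 1 d and 7 d in WT microglia, 3 of the 7 genes rose, where 3.7% of all genes were called higher. Siglech rose by 1.65 ± 0.37 on the log2 scale (3.14-fold, adjusted p = 0.0055), Sparc by 1.34 ± 0.29 (2.53-fold, adjusted p = 0.0042) and Gpr34 by 1.27 ± 0.35 (2.42-fold, adjusted p = 0.022), all by edgeR. Tmem119 (0.73 ± 0.27, adjusted p = 0.11) and Cst3 (0.64 ± 0.21, adjusted p = 0.055) did not pass by edgeR, although their 7 d libraries were all above the 1 d libraries. Slc2a5 had a log2 fold change of 0.72 ± 0.57 (adjusted p = 0.49) and Olfml3 of -0.06 ± 0.25 (0.03 with DESeq2 size factors), both with overlapping libraries. The 5 genes without overlap compare with 15.2% of all genes higher in this way. The Gpr34 call was lost without the third WT library at 1 d (adjusted p = 0.16) and without any 1 of the 3 WT libraries at 7 d (adjusted p = 0.074, 0.055 and 0.051). Cst3 passed without the second WT library at 7 d (adjusted p = 0.047) and Tmem119 without the first WT library at 1 d (adjusted p = 0.035).

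Other markers moved between the same WT libraries. From 1 d to 7 d, monocyte markers went from 136 to 211 CPM down to 25.7 to 80.0 CPM, and 2 of 8 fell. Astrocyte markers, whose cells also express Sparc, went from 11.2 to 19.4 CPM up to 30.2 to 34.3 CPM, and 1 of 6 rose. Plasmacytoid dendritic cell markers, whose cells also express Siglech, went from 80.8 to 128 CPM up to 136 to 146 CPM, and 0 of 6 were called. The part of these markers in the 3 rises was not tested.

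In Fgg γ390–396A microglia edgeR called 0 of the 7 genes between 1 d and 7 d, where it called 5.64% of all genes, 19.1% of them higher (30.2% with DESeq2 size factors). At an unadjusted p under 0.05 by edgeR there were 2 genes (Siglech and Sparc), against 3894 of all 23815 genes tested. DESeq2 called 1 (Sparc), where it called 9.93% of all genes, and limma-trend called 0. Siglech had a log2 fold change of 0.81 ± 0.36 (adjusted p = 0.26), Sparc of 0.66 ± 0.29 (adjusted p = 0.24) and Tmem119 of 0.10 ± 0.27 (adjusted p = 0.97) by edgeR. The difference between the time courses of the 2 genotypes, tested as an interaction, was called for 0 of the 7 genes (0.0% of all genes). All 7 interaction values were negative, from -0.84 to -0.08, 0 genes had an unadjusted p under 0.05, and DESeq2 called 0. A different time course in the 2 genotypes was therefore not shown.

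Olfml3 differed from the other 6 genes across microglia. Over the 15 microglia libraries the log2 CPM of the other genes correlated pairwise with Pearson's r from 0.77 to 0.95, whereas Olfml3 correlated with them at -0.07 to 0.13. Deviations of single libraries from their group means gave r of 0.42 to 0.87 between Olfml3 and the other 6. These values describe libraries that share groups, depth and sort, and carry no test. Olfml3 therefore varied with the other genes within groups and not across groups.

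The ratio of Olfml3 to Cst3 put this on a scale free of library normalization. Its log2 value was -6.14, -6.14 and -5.46 in sham controls and -4.52, -4.45 and -4.75 in WT microglia at 1 d, so that every WT library at 1 d was above every sham library. It was -5.26, -5.28 and -5.70 in Fgg γ390–396A microglia at 1 d. At 7 d the mean was -5.24 for WT and -6.00 for Fgg γ390–396A microglia. For Slc2a5 the ratio to Cst3 ran the other way, from a sham mean of -6.88 to 1 d means of -8.35 (WT) and -7.90 (Fgg γ390–396A). A ratio shows unequal change and not which gene changed.

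**Figure D3:**
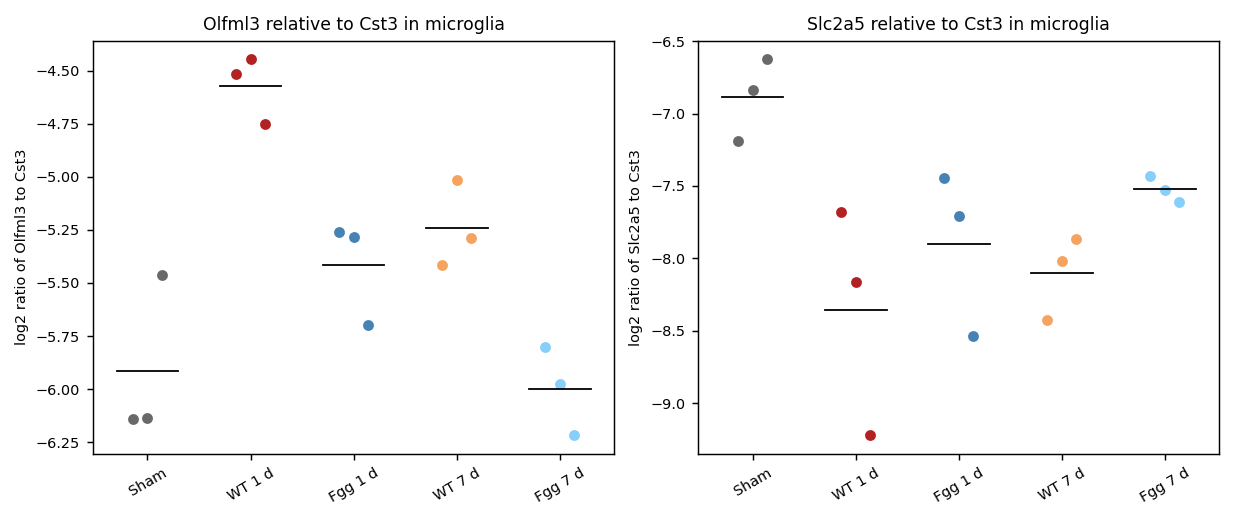
Log2 ratio of Olfml3 (left) and Slc2a5 (right) to Cst3 in each microglia library, with black lines for group means of 3 libraries. The Olfml3 ratio was highest in WT mice at 1 d (-4.75 to -4.45), and each of the 4 injured groups had a lower mean Slc2a5 ratio than sham controls.

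The question of whether the fibrin mutation altered these genes was addressed by comparing genotypes at matched times. At 1 d edgeR called 0 of the 7 genes in microglia, where it called 0.042% of all genes, and DESeq2 and limma-trend also called 0. At an unadjusted p under 0.05 there were 4 genes (Tmem119, Siglech, Sparc and Cst3), each higher in Fgg γ390–396A mice. Over all 23815 genes tested there were 1208, in either direction. Tmem119 had a log2 fold change of 0.97 ± 0.27 (adjusted p = 0.73), a mean 1.96-fold higher, and its 3 mutant libraries (321, 293 and 245 CPM) were all above the WT libraries (194, 151 and 93.6 CPM). Sparc (0.71 ± 0.29) and Cst3 (0.52 ± 0.21) also had no overlap, each with an adjusted p of 0.89. The 3 genes without overlap compare with 5.73% of all genes in this direction.

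Siglech had the largest difference of the 7, 1.18 ± 0.37 on the log2 scale (adjusted p = 0.8, edgeR), but the first WT library at 206 CPM lay above the mutant library at 193 CPM. Without that WT library its value was 1.86 and it passed the test (adjusted p = 0.03). Gpr34 (0.59 ± 0.35) and Slc2a5 (0.89 ± 0.57) had overlapping libraries, and Olfml3 had the only negative value, -0.32 ± 0.25 (adjusted p = 0.9, edgeR). Same-numbered libraries of these 2 groups deviated together, although the labels give them no shared origin. Within the 3 same-numbered pairs, 6 genes were higher in the mutant library in all 3, as were 15.5% of all genes, and Olfml3 was lower in all 3, as were 11.6%. Monocyte marker sums were 136 to 211 CPM in WT and 44.9 to 115 CPM in Fgg γ390–396A microglia at 1 d, and their part in these differences was not tested.

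At 7 d edgeR, DESeq2 and limma-trend called 0 of the 7 genes between genotypes, and 0 had an unadjusted p under 0.05 by edgeR, which called 0.0378% of all genes. Siglech and Slc2a5 libraries were all higher in Fgg γ390–396A mice, as were 5.8% of all genes, with log2 fold changes of 0.33 ± 0.36 and 0.81 ± 0.56. Olfml3 libraries (233, 196 and 170 CPM) were all lower than in WT mice (303, 275 and 277 CPM), as were 5.28% of all genes, with a log2 fold change of -0.51 ± 0.25 (adjusted p = 1, edgeR). Sparc differed by 0.03 ± 0.28.

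**Figure D4:**
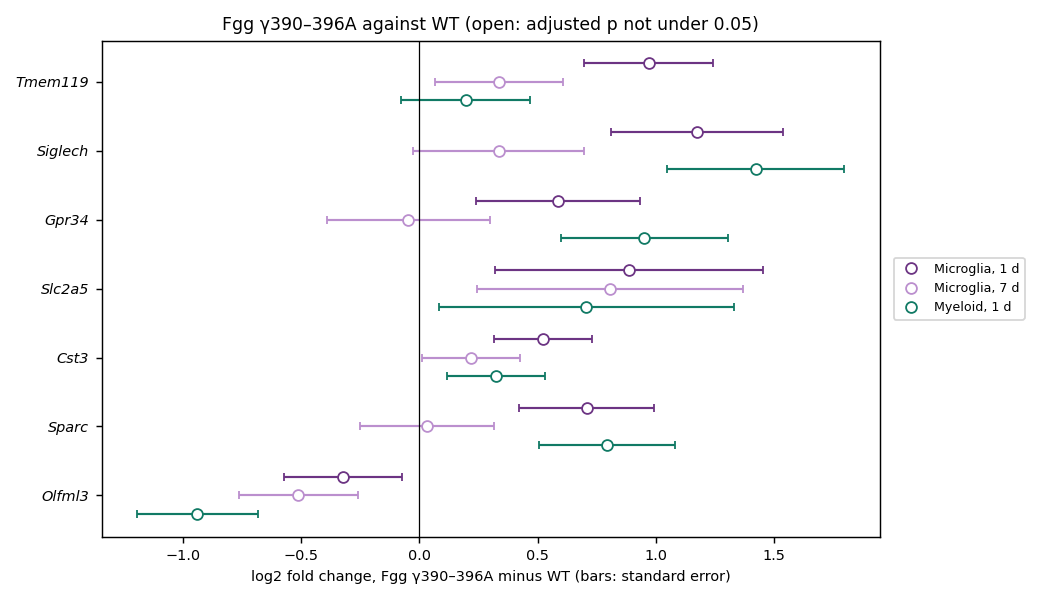
Log2 fold change of each gene between Fgg γ390–396A and WT libraries in microglia at 1 d and 7 d and in infiltrating myeloid cells at 1 d, with standard errors. All symbols are open because no value passed the test, and Olfml3 was the one gene with a negative value in all 3 comparisons.

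Among the 36 other homeostatic genes listed, 1 was called by edgeR between genotypes in microglia. DESeq2 called 5 at 1 d and 1 at 7 d, where it called 0.344% and 0.307% of all genes. At an unadjusted p under 0.05 by edgeR there were 16 of the 36 at 1 d and 3 at 7 d. Over all 23815 genes tested there were 1208 and 795. The median log2 fold change of the 36 was 0.54 at 1 d and 0.10 at 7 d, against 0.0 for all genes. Fcrls, an Fc receptor-like gene on chromosome 3, was lower in Fgg γ390–396A mice by -2.18 ± 0.29 on the log2 scale at 1 d (adjusted p = 0.0014) and by -1.62 ± 0.28 at 7 d (adjusted p = 0.04, edgeR). Olfml3 and Fcrls lie on the chromosome that carries the mutated Fgg, and so do 2 other listed genes, P2ry12 and P2ry13. The gap to Fgg is 4.24 megabases for Fcrls, 20.7 for Olfml3, 23.7 for P2ry12 and 23.8 for P2ry13. P2ry12 and P2ry13 had positive values at 1 d, 1.38 ± 0.43 (adjusted p = 0.8) and 0.78 ± 0.25 (adjusted p = 0.84, edgeR). They are given because of their chromosome. The strain origin of the segment around Fgg in the mutant mice is not given in the sources used here, and an effect of sequence linked to Fgg cannot be told apart from an effect of the mutation.

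The sort was addressed by comparing infiltrating myeloid cells with microglia at 1 d. All 7 genes were lower in myeloid cells in both genotypes, where 8.11% of all genes were called lower in WT mice and 12.1% were in the mutant mice. The log2 differences in WT mice ran from -3.92 ± 0.41 for Siglech to -1.99 ± 0.28 for Tmem119. In Fgg γ390–396A mice they ran from -4.06 ± 0.65 for Slc2a5 to -2.19 ± 0.22 for Cst3. The highest adjusted p was 0.00031, for Slc2a5 in WT mice (edgeR). No myeloid library reached a microglia library of its genotype for any of the 7, a pattern seen for 15.7% (WT) and 20.0% (mutant) of all genes.

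Siglech read 10.6, 7.37 and 5.19 CPM in WT myeloid cells and 14.6, 25.7 and 22.0 CPM in Fgg γ390–396A myeloid cells. Slc2a5 was near the detection limit in the third WT myeloid library, with 6 counts or 0.271 CPM, and ranged from 0.913 to 5.71 CPM in the mutant libraries. As a share of the microglial mean of the same genotype, WT myeloid cells held 25.2% for Tmem119 and 25.1% for Cst3, but 6.62% for Slc2a5 and 6.58% for Siglech. The corresponding shares in Fgg γ390–396A mice were 14.7%, 21.9%, 5.93% and 7.85%. The microglia markers P2ry12, Cx3cr1, Sall1 and Fcrls had shares of 6.98% (Sall1) to 14.6% (Cx3cr1) in WT and 5.68% (Sall1) to 22.6% (Fcrls) in mutant mice. Myeloid libraries carried 2649 to 4042 CPM of monocyte and 2798 to 13272 CPM of neutrophil markers, and the number of microglia within this gate was not tested.

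**Figure D5:**
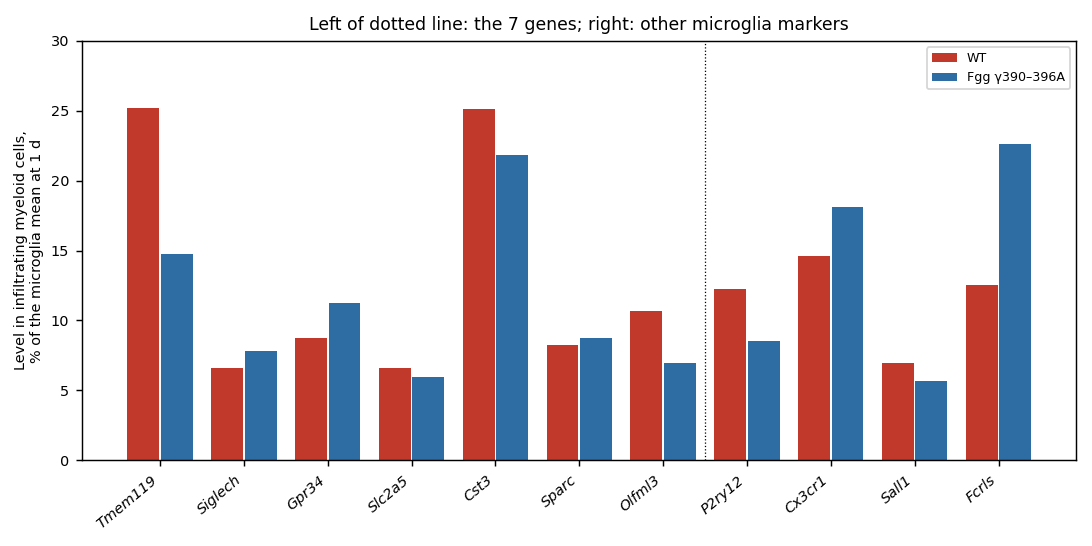
Mean level in infiltrating myeloid cells as a percentage of the microglial mean of the same genotype at 1 d (3 libraries per mean) for the 7 genes and for 4 other microglia markers. Tmem119 and Cst3 had the highest shares in WT mice (25.2% and 25.1%), and Slc2a5 and Siglech were at or below 7.85%.

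Between genotypes in myeloid cells edgeR called 0 of the 7 genes, where it called 0.206% of all genes. At an unadjusted p under 0.05 there were 4 genes, Siglech (1.42 ± 0.37, adjusted p = 0.15), Gpr34 (0.95 ± 0.35, adjusted p = 0.31) and Sparc (0.79 ± 0.29, adjusted p = 0.3) with positive values and Olfml3 (-0.94 ± 0.25, adjusted p = 0.16) with a negative one. Over all 23815 genes tested there were 2748 by edgeR. Siglech was the only 1 of the 7 without overlap, as were 3.16% of all genes in this direction. DESeq2 called Siglech and Olfml3 (adjusted p = 0.0071 and 0.017), where it called 2.61% of all genes, and limma-trend called 0 of the 7. Olfml3 also passed by edgeR without the third WT myeloid library (adjusted p = 0.046). Neutrophil markers summed to 3572 to 13272 CPM in WT and 2798 to 5874 CPM in mutant myeloid libraries, and 0 of 8 were called. Microglia markers outside the 7 genes summed to 375 to 732 CPM in WT and 510 to 914 CPM in mutant libraries, and 0 of 5 were called. The part of these markers in the differences between genotypes was not tested. The difference between genotype effects in myeloid cells and microglia, tested as an interaction, was called for 0 of the 7 genes by edgeR (0.0252% of all genes) and by DESeq2, and 0 had an unadjusted p under 0.05.

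Genes with the most similar patterns were sought among 5199 genes over the 15 microglia libraries by Pearson's r of log2 CPM. Siglech was most like P2ry12 (r = 0.99), Slc2a5 was most like P2ry13 (r = 0.98), both purinergic receptor genes, and Tmem119 was most like Siglece (r = 0.98). Gpr34 was most like Arhgap5 (r = 0.98), and its near neighbours included Tgfbr1 (r = 0.97), a receptor for TGF-β. Sparc was nearest to Sowahc (r = 0.99) and Cst3 to Rab39 (r = 0.97). Other near neighbours were Ptgs1 and Slco2b1 for Tmem119, Lpcat2 and Zfp90 for Siglech, Ppfia4 and Atp8a2 for Sparc, Slco2b1 and Siglece for Slc2a5, and Rnf167 and Tnfaip8l2 for Cst3, with r from 0.96 to 0.98. The nearest gene to Olfml3 reached only r = 0.71 (Cryzl1), followed by Slc35a3 (r = 0.70) and Paqr7 (r = 0.66). With Spearman's rho, 8 of the 21 neighbours found in this way stayed within the nearest 3.

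The 36 other homeostatic genes gave the context of the 7. In WT microglia at 1 d, 24 fell and 1 rose against sham, with a median log2 fold change of -1.16 against 0.0 for all genes, of which 5.97% were called lower. Cd164 (-1.87 ± 0.15, adjusted p = 1.9e-07), Vsir (-1.88 ± 0.17, adjusted p = 3.7e-07), the orphan receptor gene Gpr165 (-3.45 ± 0.37, adjusted p = 2.4e-06) and Tgfbr1 (-2.06 ± 0.23, adjusted p = 3.6e-06) had the smallest adjusted p by edgeR. The gene that rose was Gas6, a ligand of TAM receptors such as MERTK, named after its value was seen. In Fgg γ390–396A microglia at 1 d 13 fell and 1 rose, where 2.19% of all genes were called lower. At 7 d 4 fell in WT and 3 in Fgg γ390–396A mice, where 0.265% and 0.0546% of all genes were called lower. In myeloid cells 32 in WT and 33 in mutant mice were lower than in microglia, as were 8.11% and 12.1% of all genes.

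Of 14 cystatins and cysteine cathepsins, the partners of Cst3, 6 rose and 4 fell in WT microglia at 1 d, with a median of 0.15, where 10.7% of all genes were called higher and 5.97% lower. The other inhibitors Cstb (2.99 ± 0.27, adjusted p = 5.1e-07) and Cst7 (6.11 CPM in sham and 37.3 CPM at 1 d, adjusted p = 0.00012) and the proteases Ctsl (1.47 ± 0.22, adjusted p = 6.3e-05) and Ctsc (1.36 ± 0.22, adjusted p = 0.00017) rose by edgeR. In Fgg γ390–396A microglia at 1 d 6 rose and 0 fell, where 7.6% of all genes were called higher. Cst3 was thus lower in the same comparison in which Cstb and Cst7 were higher.

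Of 12 tested hexose transporter and fructose genes, 2 rose and 0 fell in WT microglia at 1 d, a count near the 10.7% of all genes called higher. The glucose transporter gene Slc2a1 rose from a mean of 17.4 to 66.8 CPM (1.94 ± 0.25, adjusted p = 1.9e-05, edgeR) and Slc2a6 from 0.506 to 2.85 CPM (2.45 ± 0.49, adjusted p = 0.0014, edgeR), while Slc2a5 fell. Slc2a8 (-0.85 ± 0.34) and Slc2a3 (0.75 ± 0.44) did not pass. Of 10 tested Siglec and adaptor genes 4 fell at 1 d in WT mice, the direction in which Siglech fell, where 5.97% of all genes were called lower: the inhibitory receptor gene Cd33 (-2.50 ± 0.35, adjusted p = 4.2e-05), Siglece (-1.49 ± 0.28, adjusted p = 0.00085), the kinase gene Syk (25.2 CPM in sham and 12.6 CPM at 1 d, adjusted p = 0.0016) and Siglecf (-1.56 ± 0.34, adjusted p = 0.0025), all by edgeR.

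Of 7 genes for lysophosphatidylserine receptors and metabolism, 1 rose in WT microglia at 1 d (10.7% of all genes), the receptor gene P2ry10, from a mean of 0.0527 CPM, near the level of 3 counts, to 0.578 CPM (adjusted p = 0.0032, edgeR). Abhd12, a lysophosphatidylserine lipase gene, read 321 CPM in sham and 534 CPM at 1 d (0.73 ± 0.29, adjusted p = 0.097, edgeR). Of 14 tested genes of the SPARC and olfactomedin families, edgeR called 0 at 1 d in WT mice, 1 had an unadjusted p under 0.05, and DESeq2 and limma-trend each called 1. Over all 23815 genes tested, 6592 had an unadjusted p under 0.05 by edgeR, and DESeq2 and limma-trend called 23.1% and 20.4%. Sparcl1, with the smallest adjusted p by edgeR, had a log2 fold change of -1.70 ± 0.71 (adjusted p = 0.12).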

How the data were processed

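The authors sequenced 21 libraries made with a low-input NuGEN Ovation V2 kit and deposited a table of expected counts per gene, estimated by salmon and scaled for library size and gene length (GRCm38). The submitters' processing notes also list R 4.2.0 and DESeq2 1.36.0. The deposited expected counts were rounded to whole numbers, and 45143 of 45706 identifiers matched a GENCODE M21 symbol. Total counts ranged from 18896957 to 51875767 (median 27001646). CPM values use TMM library sizes. Since gene length had been divided out by the authors, levels can be compared between genes.

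Groups were taken from the sample labels. Genes with at least 5 counts over all libraries (23815) were fitted in edgeR 4.0.16 (R 4.3.3) with 1 mean per group and the quasi-likelihood test, Benjamini-Hochberg adjustment and a threshold of 0.05, in 11 comparisons and 2 interaction tests. Standard errors were obtained by dividing each log2 difference by the square root of its F statistic. The study's own calls add a bar on fold change, and its plots between genotypes use an adjusted p under 0.1. Neither was used for the calls given here. DESeq2 1.42.0 and limma-trend (limma 3.58.1), DESeq2 size factors, filterByExpr, no filter on counts, removal of ribosomal RNA genes, fits of the compared groups or of the microglia libraries alone, a replicate block, Spearman's rho for likeness and the omission of each library in turn were tried as alternatives. The script was tested on simulated data. Counting intervals and floors (3 counts) cover counting error only.

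The members, the 6 lists of related genes and the marker lists were chosen with earlier results of these data known. All 7 members are named in every comparison. From each list, up to 4 genes with the smallest adjusted p in WT microglia at 1 d and any gene called between genotypes in microglia are named, and for each member the 3 genes with the highest Pearson correlation of log2 CPM (prior count 2) among those with a mean of at least 10 CPM in microglia. Of those neighbours and of the microglia markers, 1 each is not reported here. By the rule used, every same-numbered pair of libraries had to exceed a set correlation over genes. Only the 2 microglia groups at 1 d after injury met it (r = 0.372, 0.151 and 0.104). The numbers therefore pair these groups by the data and not by the labels. WT myeloid cells and WT microglia at 1 d missed the rule in 1 pair (r = 0.134, 0.166 and 0.0227). Their mean r was 0.107, and a shared origin of these libraries was not tested. The replicate block changed no call of a member between the 2 microglia groups.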

Additional observations from a re-analysis of the deposited data

How the results depend on the processing

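Of the log2 fold changes under settings other than leaving out a library, 751 kept their direction and side of the threshold, 27 newly passed, 1 no longer passed and 12 changed sign. Leaving out 1 library at a time gave 571, 4, 20 and 35. The cause of these changes was not tested. The limits are 3 libraries a group, a shared sham group and, in myeloid cells, Slc2a5 with as few as 6 counts.

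With DESeq2 the number of the 7 genes that passed went from 3 to 6 for Fgg γ390–396A at 1 d against sham, from 1 to 3 for WT at 7 d against sham, from 3 to 5 for WT at 7 d against 1 d, from 0 to 1 for the same in Fgg γ390–396A, and from 0 to 2 between genotypes in myeloid cells. Fits of the compared groups alone gave 4 for WT at 7 d against sham, 1 for Fgg γ390–396A at 7 d against sham and 1 for Fgg γ390–396A at 7 d against 1 d. For Fgg γ390–396A at 1 d against sham they gave 4, with Slc2a5 and Tmem119 gained and Cst3 lost (adjusted p = 0.08, edgeR). Microglia libraries alone gave 2 for WT at 7 d and 5 for Fgg γ390–396A at 1 d against sham, and 4 for WT at 7 d against 1 d. DESeq2 size factors and filterByExpr each added Tmem119 for Fgg γ390–396A at 1 d against sham and Cst3 for WT at 7 d against 1 d. Leaving out 1 library gave 0 to 3 for Fgg γ390–396A at 1 d against sham, 0 to 0 for WT at 7 d against sham, 2 to 4 for WT at 7 d against 1 d, and 0 to 1 between genotypes at 1 d in microglia and in myeloid cells.

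The replicate block, where libraries share only a number, gave 4 in place of 3 for Fgg γ390–396A at 1 d against sham (Tmem119, adjusted p = 0.024, edgeR) and 4 in place of 3 for WT at 7 d against 1 d (Tmem119, adjusted p = 0.048, edgeR). It changed no other call of the 7 genes, and gave 1.00 for Tmem119 and 1.24 for Siglech between genotypes at 1 d.

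Sign changes outside leave-outs were confined to uncalled values near 0 of Olfml3 and Sparc. With DESeq2 or its size factors Olfml3 read -0.037 at 1 d and -0.0075 (-0.0074 with size factors alone) at 7 d against sham in WT and 0.029 between those days, and Sparc read -0.0033 (-0.0032 with size factors alone) at 7 d against sham. The replicate block gave -0.016 for Olfml3 and -0.00076 for Sparc at 7 d in WT, and microglia libraries alone gave -0.019 and -0.012. With DESeq2 size factors Sparc in Fgg γ390–396A at 1 d was 59.6% of the sham mean, a lower share than with TMM.

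Ranges over leave-outs that held a change of sign were, for Olfml3, -0.047 to 0.29 (WT at 1 d against sham), -0.10 to 0.23 (WT at 7 d against sham), -0.27 to 0.0069 (WT at 7 d against 1 d) and -0.31 to 0.0035 (genotype by time). For Slc2a5 they were -0.60 to 1.26 between genotypes in myeloid cells, the lowest without the third Fgg γ390–396A library, -1.49 to 0.37 (genotype by cell type) and -0.47 to 0.30 (genotype by time). For Sparc they were -0.064 to 0.11 (WT at 7 d) and -0.031 to 0.14 (Fgg γ390–396A at 7 d) against sham and -0.25 to 0.41 (genotype by cell type). For Tmem119 they were -0.065 to 0.46 between genotypes in myeloid cells and -0.019 to 0.21 for Fgg γ390–396A at 7 d against 1 d. For Gpr34 they were -0.23 to 0.064 between genotypes at 7 d and -0.00089 to 0.97 (genotype by cell type). For genotype by cell type they were -0.44 to 0.66 for Siglech and -0.36 to 0.038 for Cst3.

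Over all genes, DESeq2 called 3564 in place of 2333 for Fgg γ390–396A at 1 d against sham, 1305 in place of 640 for WT at 7 d and 591 in place of 211 for Fgg γ390–396A at 7 d against sham, 3875 in place of 2453 and 2365 in place of 1343 between days in WT and Fgg γ390–396A, 82 in place of 10 and 73 in place of 9 between genotypes at 1 d and 7 d, 621 in place of 49 in myeloid cells, and 25 and 137 in place of 0 and 6 for the interactions with time and cell type. Fits of the compared groups alone called fewer in several comparisons, with the largest relative falls in 5. These were 2486 in place of 5092 for mutant myeloid cells against microglia and 109 in place of 211 for Fgg γ390–396A at 7 d against sham. The others were 6 in place of 10 and 7 in place of 49 between genotypes at 1 d in microglia and in myeloid cells, and 0 in place of 6 for the interaction with cell type. limma-trend called 324 for Fgg γ390–396A at 7 d against sham, 16 and 17 between genotypes at 1 d and 7 d, 99 in myeloid cells and 1 for the interaction with time.

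Leaving out 1 library also moved the shares of all genes. Genes called lower against sham went from 1422 to between 731 and 1572 for WT at 1 d and from 522 to between 205 and 614 for Fgg γ390–396A at 1 d, each lowest without the third library of the injured group, from 63 to between 25 and 42 for WT at 7 d and from 13 to between 5 and 7 for Fgg γ390–396A at 7 d. Genes called higher between days in WT went from 882 to between 405 and 1096. Between genotypes in myeloid cells, 29 higher and 20 lower became 109 and 205 without the third Fgg γ390–396A library.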
